A study of Mus musculus with 15 samples.

Results

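The circular RNAs of Ano4 and Brca2 were followed in mouse kidney at 3, 12 and 24 months of age together with the linear RNA of the same genes. Both circles were higher in every mouse of 12 and 24 months than in any mouse of 3 months, and so was the linear RNA of both genes. Relative to 3 months, the Ano4 circle rose beyond the summed linear RNA of its host on average, by a similar margin at both older ages. The ratio of circle to host overlapped between ages for both genes. The Brca2 circle did not exceed the summed linear RNA of its host at 12 months and did so by a small margin at 24 months, and the margins of both circles depended on which linear transcripts were counted. The members were the rows of the circular RNA table annotated to the genes Ano4 or Brca2. There were 2 such circles among 11929 circular RNAs, 1 for each gene, and 22 linear transcript rows of these genes among 129029. The members were chosen by their circle counts at 12 and 24 against 3 months, so these differences, and those of the linear RNA in the same comparisons, are described and were not tested.

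Kidney tissue came from 15 male C57BL/6 mice (C57BL/6J in the study's methods) with no treatment or genetic change given in the labels, 5 mice each at 3, 12 and 24 months of age. Each mouse gave 1 library from part of a kidney, and mice are named by their age and label number. The labels give removal of ribosomal RNA before sequencing, while the study's methods name oligo(dT) selection, and which applied is not settled here. The deposited circular RNA counts summed to between 6974494 and 9889971 per mouse, with a median of 8426751. The deposited FPKM of the circles (fragments scaled by length and library size) imply libraries of 33188135 to 46278104 reads, so the circle counts made up 20.2% to 25.4% of all reads. How reads were assigned to circles is not given in the sources used here, and 83.6% to 94.6% of the counts in a mouse were more than 0.001 away from a whole number. Reads from exons that a circle shares with its linear host may therefore be part of a circle's count, and the measurements of circle and host may not be independent.

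A circular RNA forms when the end of an exon is joined back to the start of the same or an earlier exon, a step called backsplicing. The closed ring has no free ends and no poly(A) tail and is resistant to exonucleases. Ano4 encodes an anoctamin, a family of membrane proteins that includes calcium-activated chloride channels and phospholipid scramblases. Brca2 encodes a protein of homologous recombination, the repair of double-strand breaks from an intact copy, and its large exon 11 encodes the BRC repeats.

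The Ano4 circle, circRNA7061, spans chr10:88992875-89068231 on the minus strand of GRCm38. It runs from exon 7 to exon 16 of the transcript ENSMUST00000182462, which has 27 exons and is annotated as a nonsense-mediated decay transcript in GENCODE M21. All of its exonic sequence also lies within the coding sequence of 3 protein-coding Ano4 transcripts. Its 10 exons add up to 1099 nt, 26.7% of the transcript. The Brca2 circle, circRNA6703, spans chr5:150535439-150557245 on the plus strand and runs from exon 9 to exon 20 of the protein-coding transcript ENSMUST00000044620, which also has 27 exons. Its 12 exons add up to 7738 nt, 72.2% of the transcript, and exon 11 alone gives 4809 nt of it. Both circles begin and end exactly at annotated exon edges. Divided by 3, each length leaves a remainder of 1.

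The sequences at the backsplice show what sets each circle apart from its host RNA, since every other base of the exons is shared with the linear transcript. They were assembled from the GENCODE M21 transcripts, 40 bases on each side, and are shown with the 2 linear junctions that the backsplice replaces. Capitals mark the 10 bases on each side of a junction.
Ano4 backsplice, exon 16 to exon 7: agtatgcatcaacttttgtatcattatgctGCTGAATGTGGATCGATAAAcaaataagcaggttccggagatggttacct
Ano4 linear, exon 6 to exon 7: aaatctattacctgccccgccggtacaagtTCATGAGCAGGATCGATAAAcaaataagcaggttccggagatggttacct
Ano4 linear, exon 16 to exon 17: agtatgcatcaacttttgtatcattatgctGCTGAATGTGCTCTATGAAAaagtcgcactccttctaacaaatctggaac
Brca2 backsplice, exon 20 to exon 9: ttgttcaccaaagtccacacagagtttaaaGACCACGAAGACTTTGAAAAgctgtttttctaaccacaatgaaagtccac
Brca2 linear, exon 8 to exon 9: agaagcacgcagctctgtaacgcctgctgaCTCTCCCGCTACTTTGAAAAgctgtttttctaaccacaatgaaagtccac
Brca2 linear, exon 20 to exon 21: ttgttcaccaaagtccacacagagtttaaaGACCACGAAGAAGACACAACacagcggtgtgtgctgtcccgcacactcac

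The 2 circles differ in their setting within the gene. The median exonic circle of the table has 4 exons and a genomic span of 10486 bases. The Ano4 circle spans 75357 bases, more than 95.2% of the 10810 exonic circles, and lies between introns of 16315 bases upstream and 9083 bases downstream. The Brca2 circle spans 21807 bases, and the introns beside it are short, 796 bases upstream and 1144 bases downstream against medians of 6809 and 5228 bases. A shorter upstream intron was found for 5.53% of 10796 circles and a shorter downstream intron for 11.1%. GC content was 46.3% in the Ano4 circle and 39.4% in the Brca2 circle. Of the 4210 host genes, 46.9% had 1 circle in the table, as Ano4 and Brca2 did.

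**Figure D1:**
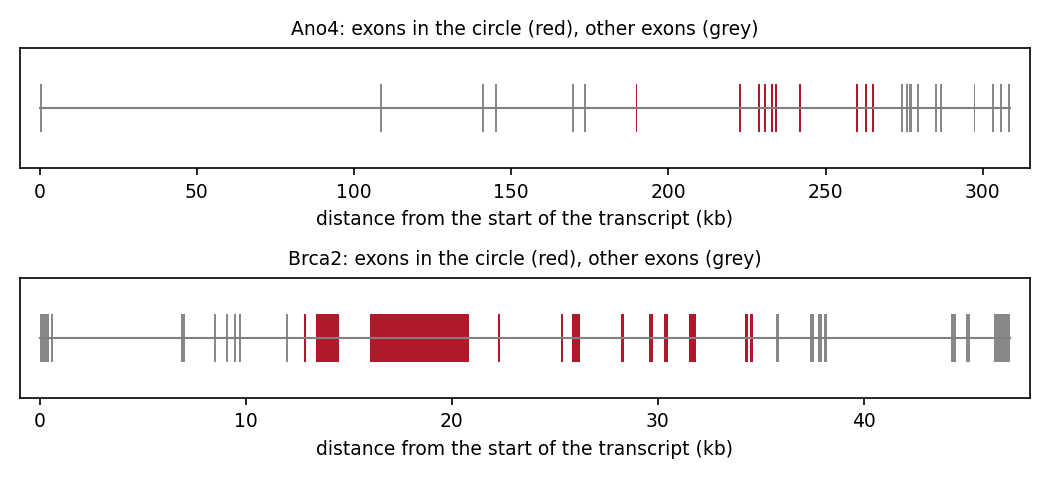
Exons of ENSMUST00000182462 (Ano4, top) and ENSMUST00000044620 (Brca2, bottom) by distance in kb from the start of the transcript, with introns as a line; the shortest exons are widened to be visible. The 10 exons of the Ano4 circle spread over 75357 bases, while the 12 exons of the Brca2 circle include the long exon 11.

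The Ano4 circle was higher at 12 than at 3 months, and higher again at 24 months. The level in CPM, a circle's count for every 1000000 circular RNA counts after TMM scaling, was 12.5, 17.1, 22.5, 18.8 and 13.8 in the 5 mice of 3 months. They were 32.8, 46.4, 45.1, 42.7 and 41.1 CPM at 12 months. At 24 months they were 56.1, 62.2, 68.5, 73.6 and 54.1 CPM. The 3 ages did not overlap, and the means were 16.96 ± 3.99, 41.6 ± 5.32 and 62.9 ± 8.21 CPM (SD, n = 5 each). Behind these values stand 95.8 to 173 deposited counts per mouse at 3 months, 294 to 440 at 12 months and 473 to 682 at 24 months. The fitted difference against 3 months was 1.29 on the log2 scale at 12 months (SE 0.15), or 2.44-fold, and 1.88 at 24 months (SE 0.15), or 3.69-fold.

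The Brca2 circle showed the same order of ages with a smaller step from 12 to 24 months. It measured 11.8, 12.8, 13.1, 16.6 and 17.8 CPM in the mice of 3 months. At 12 months the values were 31.3, 32.6, 31.1, 28.2 and 32.6 CPM, and at 24 months they were 40.3, 36.9, 42.7, 47.2 and 37.5 CPM. These groups did not overlap either, and the means were 14.4 ± 2.63, 31.1 ± 1.80 and 40.9 ± 4.19 CPM (SD, n = 5 each). The counts ranged from 90.3 to 137 per mouse at 3 months, from 194 to 304 at 12 months and from 282 to 437 at 24 months. The fitted difference against 3 months was 1.11 at 12 months (SE 0.12), or 2.15-fold, and 1.499 at 24 months (SE 0.12), or 2.83-fold.

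Among all circular RNAs, 6.63% of 11923 passed an adjusted p of 0.05 at 12 against 3 months (3.44% higher in the older mice), and 13.3% of 11924 passed at 24 against 3 months (6.66% higher), by edgeR's quasi-likelihood test with Benjamini-Hochberg adjustment. A higher CPM without overlap between ages was found for 3.98% at 12 against 3 months and for 5.54% at 24 against 3 months. The split of called circles at 24 against 3 months was 794 higher and 788 lower, and it was 1354 higher and 501 lower when counts were scaled by library totals only. At 12 against 3 months it was 410 higher and 381 lower, and 540 higher and 263 lower with library totals. The 2 circles moved little with that scaling, to 1.33 and 1.97 for Ano4 and to 1.15 and 1.58 for Brca2.

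**Figure D2:**
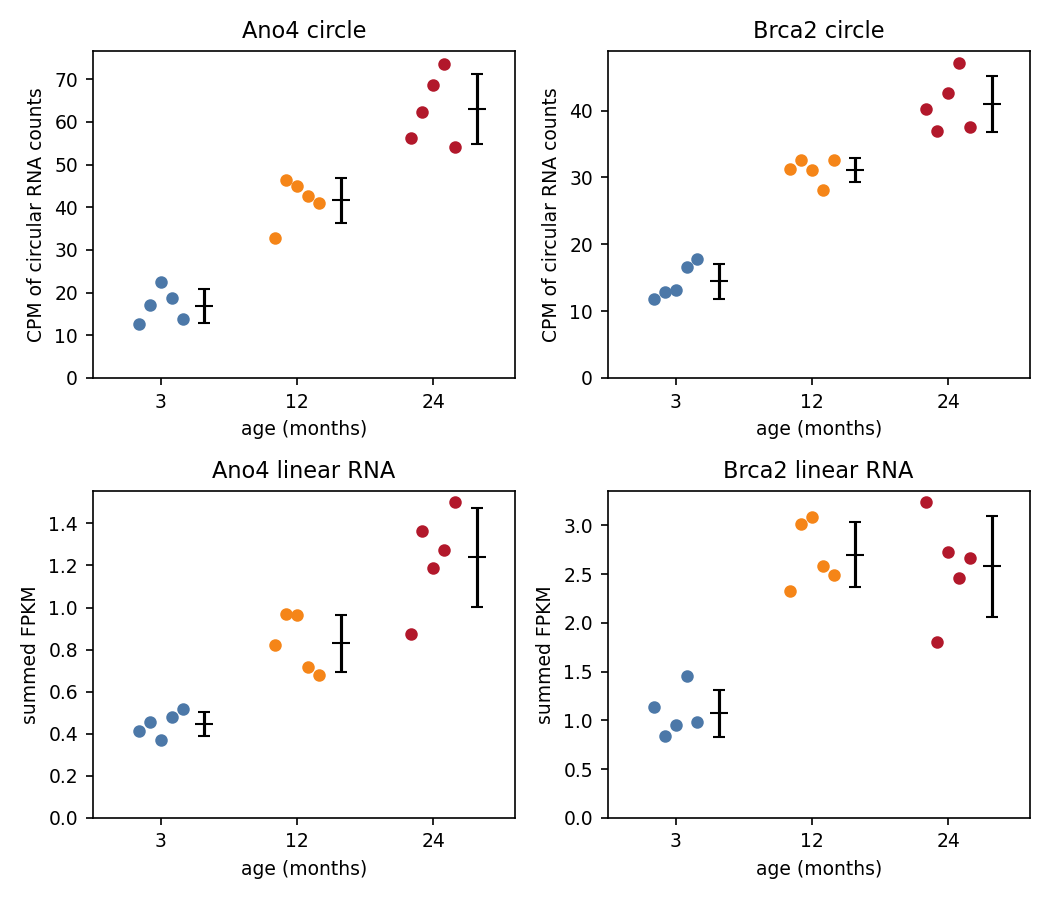
Circle CPM (top) and summed FPKM of the linear rows (bottom) of Ano4 (left) and Brca2 (right) by age in months; each dot is a mouse and bars are mean ± SD (n = 5). The circles do not overlap between any 2 ages, and the linear RNA at 12 and 24 months lies above that at 3 months in every mouse.

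The comparison of 24 with 12 months was not itself used to choose the members, but the circle counts of both ages were. The choice can therefore affect this comparison, and its p-values are not independent of the choice. The Ano4 circle rose by a log2 difference of 0.59 (SE 0.11), or 1.51-fold, with an adjusted p of 0.0232 in edgeR's quasi-likelihood test over 11925 circles. Its values were higher in each of the 5 mice of 24 months than in any mouse of 12 months, and the exact permutation test, 2-sided, gave p = 0.00794, the smallest it can give with 5 against 5 mice. The Brca2 circle rose by 0.39 (SE 0.083), or 1.31-fold, with an adjusted p of 0.0495 by edgeR and the same exact permutation p of 0.00794. In this comparison 0.738% of all circles passed, 0.31% upward, and 1.86% were higher without overlap. Called circles split into 37 higher and 51 lower (0.428% of all), and into 53 higher and 34 lower with library totals. In a fit over all 15 mice no circle passed, with 1530 at an unadjusted p under 0.05, and the adjusted p by edgeR was 0.0847 for Ano4 and 0.139 for Brca2. The edgeR call was also lost for Ano4 without any one of mice 17, 19, 20, 33 and 34 (adjusted p 0.0528 to 0.0818), and for Brca2 without any one of 17, 18, 19, 20, 31, 33 and 34 (0.0804 to 0.155).

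The linear RNA of Ano4 was low and also higher with age. The gene's level was taken as the sum of the FPKM of its 8 linear rows. It was 0.413, 0.456, 0.372, 0.477 and 0.519 FPKM in the mice of 3 months and 0.820, 0.972, 0.963, 0.717 and 0.677 FPKM at 12 months. At 24 months it was 0.873, 1.36, 1.19, 1.27 and 1.4996 FPKM. The groups of 12 and 24 months lay above that of 3 months with no overlap and overlapped each other, with means of 0.447 ± 0.0572, 0.830 ± 0.136 and 1.24 ± 0.235 FPKM (SD, n = 5 each). As a ratio of means the gene was 1.85-fold higher at 12 months and 2.77-fold higher at 24 months than at 3 months.

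In limma over all genes, on log2(FPKM + 1), which understates the change of genes at this level, linear Ano4 differed by 0.34 at 12 against 3 months (SE 0.077) and by 0.62 at 24 against 3 months (SE 0.097). With 0.1 in place of 1 added, these differences were 0.76 and 1.28. At 24 against 12 months the difference was 0.29 (SE 0.11, adjusted p = 0.741 by limma). By the exact permutation test, 2-sided and unadjusted, p was 0.0238 for 24 against 12 months.

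The linear RNA of Brca2 reached its higher level by 12 months. The sum of its 14 linear rows was 1.13, 0.837, 0.951, 1.45 and 0.979 FPKM at 3 months. It was 2.32, 3.01, 3.08, 2.58 and 2.49 FPKM at 12 months and 3.24, 1.81, 2.72, 2.46 and 2.66 FPKM at 24 months. The 2 older groups lay wholly above the youngest and overlapped each other, with means of 1.07 ± 0.238, 2.70 ± 0.332 and 2.58 ± 0.517 FPKM (SD, n = 5 each). The ratio of means was 2.52 at 12 and 2.41 at 24 months against 3 months, and 0.956 between 24 and 12 months.

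Linear Brca2 differed by 0.84 on the log2(FPKM + 1) scale at 12 against 3 months (SE 0.11) and by 0.78 at 24 against 3 months (SE 0.13), and by 1.27 and 1.19 with 0.1 added. At 24 against 12 months it differed by -0.055 (SE 0.12, limma adjusted p = 0.917). The exact permutation p of this last comparison, 2-sided, was 0.667. Over all genes limma called 0.25% of 31637 at 12 against 3 months (0.196% upward), 1.22% of 31755 at 24 against 3 months (1% upward) and 0.0031% of 32282 at 24 against 12 months. A higher level without overlap was found for 3.45% and 3.82% of genes at 12 and 24 against 3 months.

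The linear rows differ in how much of the circle they hold. For Ano4, 3 rows hold the whole circle, 4 hold part of it and 1 shares no base with it. The rows with the whole circle summed to 0.206 ± 0.0238, 0.272 ± 0.0790 and 0.558 ± 0.160 FPKM at 3, 12 and 24 months (SD, n = 5 each). The youngest and the middle group overlapped here, and the oldest stood above both. The rows with part of the circle summed to 0.222, 0.493 and 0.577 FPKM on average, with no overlap between 3 months and either older age. The row with no base of the circle, ENSMUST00000180843 at the 5′ end of the gene, had 0.0194, 0.0646 and 0.104 FPKM with all ages overlapping.

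For Brca2, 2 rows hold the whole circle, 6 hold part of it and 6 hold none. The rows with the whole circle summed to 0.325 ± 0.0693, 0.707 ± 0.229 and 0.886 ± 0.196 FPKM (SD, n = 5 each), higher at 24 than at 3 months without overlap. The rows with none of it summed to 0.256 ± 0.116, 0.921 ± 0.285 and 0.551 ± 0.274 FPKM. These were above 3 months without overlap at 12 months and overlapped it at 24 months. Linear rows that share no base with the circle were thus 3.60-fold higher at 12 months and 2.15-fold higher at 24 months than at 3 months as a ratio of means.

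Of single rows, ENSMUST00000182462, which holds the whole Ano4 circle, was the highest of that gene with 0.183, 0.266 and 0.515 FPKM at the 3 ages. It was followed by ENSMUST00000182419 (0.152, 0.153 and 0.266 FPKM), ENSMUST00000183268 (0.0699, 0.186 and 0.193 FPKM), ENSMUST00000182041 (listed at 0 in every mouse of 3 months, then 0.124 and 0.0800 FPKM) and ENSMUST00000180843. For Brca2 the highest row was ENSMUST00000202313 (0.0795, 0.504 and 0.720 FPKM), then ENSMUST00000202693 (0.298, 0.376 and 0.494 FPKM), ENSMUST00000201165 (0.114, 0.387 and 0.188 FPKM), ENSMUST00000044620 (0.245, 0.204 and 0.166 FPKM) and ENSMUST00000202975 (0.0974, 0.263 and 0.243 FPKM). ENSMUST00000202313 and ENSMUST00000044620 are the 2 rows with the whole circle, and their shares changed from mouse to mouse: ENSMUST00000202313 was above 0 in 9 mice and ENSMUST00000044620 in 10. Their sum was therefore used, not either row alone.

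**Figure D3:**
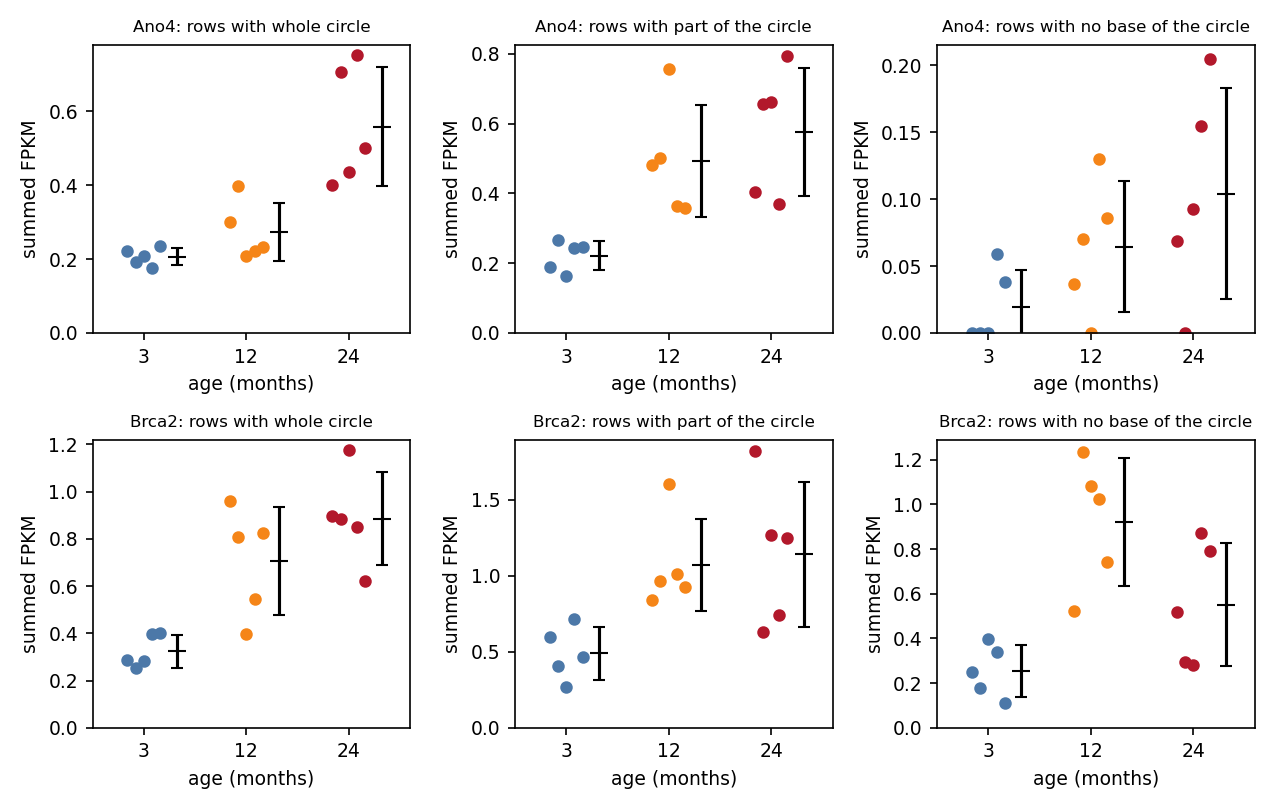
Summed FPKM of the linear rows of Ano4 (top) and Brca2 (bottom) that hold the whole circle, part of it or no base of it, by age in months; dots are mice and bars are mean ± SD (n = 5). The Brca2 rows with no base of the circle average 0.256, 0.921 and 0.551 FPKM at 3, 12 and 24 months.

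Per length, the 2 circles stood on opposite sides of the summed FPKM of their hosts. Against only the rows with the whole circle, both were above the linear level on average. The deposited FPKM of the Ano4 circle averaged 7.83 over the 15 mice against 0.839 for its host, 9.34 times as much. Such a ratio or a higher one was rare in the table, since 97.6% of 11926 circles had a lower one and the median was 0.809. The Brca2 circle averaged 0.794 FPKM against 2.12 for its host, a ratio of 0.375. Set against only the rows with the whole circle, the circle was on average 17.1, 31.1 and 22.7 times the linear level for Ano4 at 3, 12 and 24 months. For Brca2 this ratio was 1.28 ± 0.119, 1.32 ± 0.484 and 1.30 ± 0.271 (SD, n = 5 each), so it differed between ages by less than the spread between mice.

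Whether each circle rose beyond its host was measured in each mouse as log2 of the circle CPM minus log2 of the host FPKM, with 0.5 added to the counts and 0.1 to the FPKM. For Ano4 this ratio was 4.62, 4.95, 5.58, 5.03 and 4.49 at 3 months. It was 5.16, 5.44, 5.41, 5.71 and 5.73 at 12 months and 5.85, 5.41, 5.73, 5.74 and 5.08 at 24 months. The mean was higher by 0.55 at 12 months (SE 0.22) and by 0.63 at 24 months (SE 0.24) than at 3 months, which is 1.47-fold and 1.55-fold. These margins depend on the host measure and on the pseudocount. With 1 added to the host FPKM, which understates host change, they were 0.98 and 1.28, and with 0.01 added 0.44 and 0.47. With the rows that hold the whole circle they were 1.05 and 0.83, and with the row that holds none of it 0.88 and 1.21. That last row averaged at most 0.104 FPKM at any age, near the 0.1 added, and was above 0 in 10 mice. As a ratio of means it was 3.32-fold and 5.35-fold higher than at 3 months, more than the 2.45-fold and 3.71-fold of the circle CPM. Circle CPM is scaled within the circle counts, whose share of reads was lower at 24 than at 3 months. With the deposited FPKM of the circle, which is scaled to library size, the margins were 0.49 and 0.57. Mouse 7 of 3 months lay within the range of the older mice, and the 2 older ages overlapped each other. Over 11920 circles with a linear host the median difference at 12 against 3 months was 0.0031, and 97.5% lay below that of Ano4. At 24 against 3 months 97.7% of 11921 lay below it. The circle counts that chose the members enter this ratio and favour a high place, so these places are a description only. From 12 to 24 months the Ano4 ratio differed by 0.077 (SE 0.18, exact permutation p = 0.643, 2-sided), and by -0.22 when only the rows with the whole circle were used (p = 0.294, exact).

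For Brca2 the ratio was 3.27, 3.78, 3.65, 3.42 and 4.05 at 3 months. It was 3.69, 3.39, 3.29, 3.40 and 3.65 at 12 months and 3.60, 4.27, 3.92, 4.20 and 3.77 at 24 months. At 12 months the mean differed from 3 months by -0.15 (SE 0.16) and the groups overlapped, so the circle did not exceed its host there. This sign depends on the host measure and on the pseudocount. The difference was 0.23 with the rows that hold the whole circle. It was 0.28 with 1 added to the host FPKM, which understates host change, and -0.22 with 0.01 added. With the deposited FPKM of the circle in place of its CPM it was -0.21 at 12 months and 0.26 at 24 months. At 24 months the mean was higher by 0.32 (SE 0.19), or 1.25-fold, again with overlap. Of all circles, 90.9% had a lower difference, a place that the choice of the member also favours. From 12 to 24 months the ratio rose by 0.47 (SE 0.15), or 1.38-fold. The exact permutation p was 0.0238, 2-sided, not adjusted for the 2 ratios tested and not independent of the choice of the members. The ratio differed by 0.073 (exact permutation p = 0.762) when the host was measured by the rows with the whole circle only. It differed by 1.09 (exact permutation p = 0.0238) with the rows that hold no base of the circle.

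**Figure D4:**
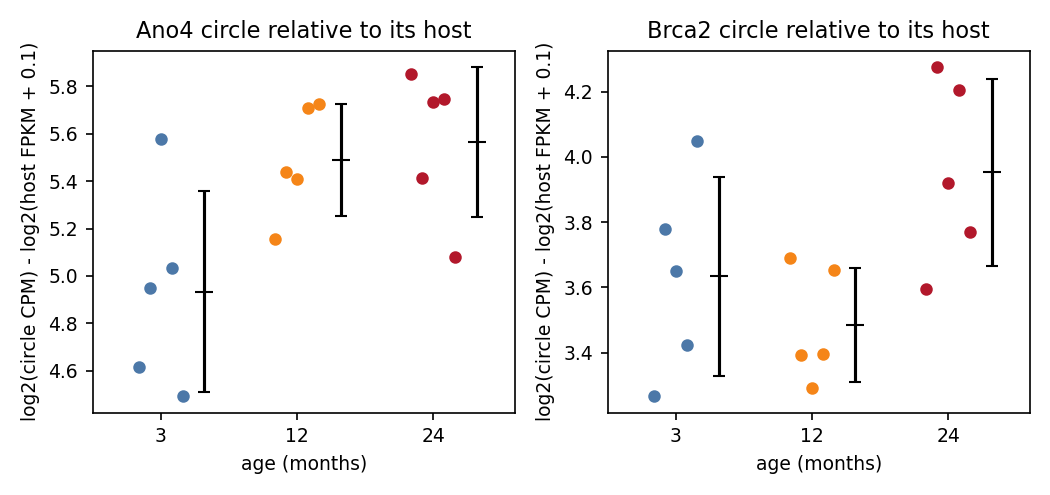
Log2 of circle CPM minus log2 of host FPKM (with 0.1 added) by age in months for Ano4 (left) and Brca2 (right); dots are mice and bars are mean ± SD (n = 5). The ages overlap for both genes, and the axes do not start at 0.

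Seen across the table, few circles had a host that rose this much. Linear Ano4 at 24 against 3 months rose more, on log2(FPKM + 0.1), than the hosts of 99.9% of circles. For linear Brca2 the share was 99.8%. The members were chosen in this comparison, and circle and host may share reads, so the choice can favour these places. Across the 11921 circles the difference of the circle and that of its host correlated with r = 0.61 at 24 against 3 months and r = 0.60 at 12 against 3 months. This is a description across circles, which are not independent replicates, share libraries and may share reads with their hosts.

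**Figure D5:**
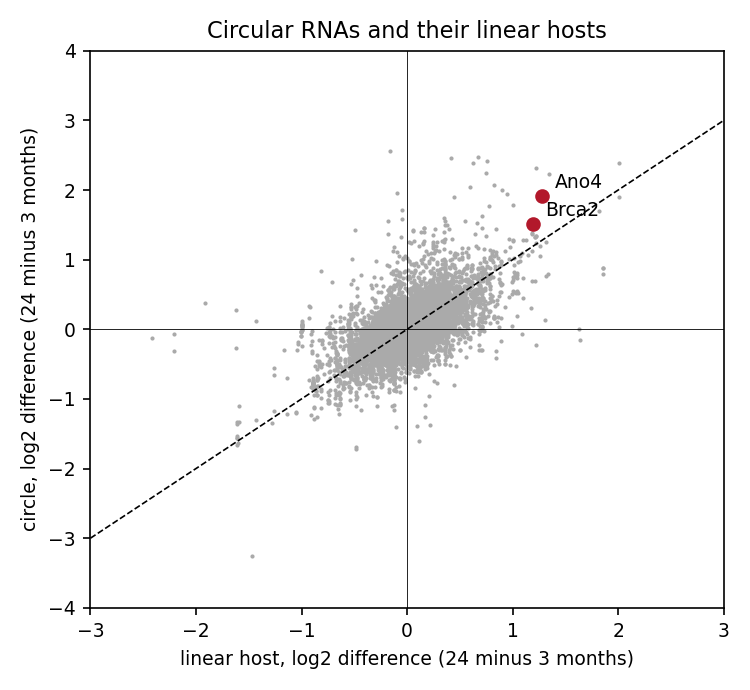
Log2 difference at 24 against 3 months of 11921 circular RNAs (vertical) and of their linear hosts (horizontal), with equality as a dashed line and 1 circle beyond the axes. Ano4 lies above the dashed line by 0.63 and Brca2 by 0.32.

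From mouse to mouse within an age, no relation of the circles to their hosts was detected. After each age was centred on its mean, Ano4 circle and host had a Pearson r of -0.015 (permutation p = 0.955) and a Spearman rho of 0.049 (permutation p = 0.864) over 15 mice, and r was -0.20 without the 2 mice farthest from the median host level. For Brca2, r was 0.30 (permutation p = 0.374) and rho 0.37 (permutation p = 0.242), and without the 2 farthest mice r was -1.46e-05. The 2 circles had an r of 0.19 (permutation p = 0.618) and a rho of 0.33 (permutation p = 0.331) with each other, and r was 0.12 without the 2 farthest mice. The adjusted p over these 3 relations was between 0.928 and 0.955 for r by permutation, and between 0.496 and 0.864 for rho.

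Over all 15 mice with ages pooled, the log2 CPM of the 2 circles had a Pearson r of 0.95, which carries the difference between ages that chose them. Of 11925 circles, those most like the Ano4 circle in this measure were a circle of Itgb3bp (r = 0.98), one of Fer (0.95) and one of Ankrd12 (0.94). Those most like the Brca2 circle were circles of Wdr44 (0.95), Ccdc30 (0.95) and again Itgb3bp (0.94). The Itgb3bp circle measured 27.8 ± 2.44, 41.4 ± 2.89 and 48.4 ± 4.73 CPM (SD, n = 5 each) at 3, 12 and 24 months, so it changed by less than the Ano4 circle in proportion.

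Among the anoctamins read beside Ano4, none was called in linear RNA at 24 against 3 months. Of the 9 family members other than Ano4, limma called 0 at 12 and 0 at 24 against 3 months, with 2 higher and 0 lower at an unadjusted p under 0.05 in each, where 11.4% of all genes were higher in each. Their median log2 difference was 0.13 at 24 against 3 months, and the median of all genes was 0.020. Ano1, the calcium-activated chloride channel TMEM16A, had the largest difference of these (0.45, SE 0.21, limma adjusted p = 0.359), from 2.57 to 4.001 FPKM, and Ano9 differed by 0.31 (SE 0.13, adjusted p = 0.312). Of 13 circles from Ano1, Ano2, Ano6 and Ano10, edgeR called 2 higher and 3 lower at 24 against 3 months, against 6.66% and 6.61% of all circles. The 2 higher ones were both from Ano1, at 0.654 against 1.71 CPM (log2 difference 1.39, adjusted p = 0.0388) and at 1.49 against 3.21 CPM (1.11, adjusted p = 0.0207). The 3 lower ones were from Ano6, a phospholipid scramblase, with log2 differences of -0.27 to -0.31.

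Of the homologous recombination and Fanconi anaemia genes other than Brca2, 43 were tested, and limma called 0 at 12 and 0 at 24 against 3 months. At an unadjusted p under 0.05, 12 were higher and 0 lower at 12 months, and 16 were higher and 1 lower at 24 months. Over all genes these shares were 11.4% and 2.9% at 12 months, and 11.4% and 3.47% at 24 months. Their median log2 difference was 0.098 and 0.14, against 0.022 and 0.020 for all genes. Rad50, part of the MRN complex that senses double-strand breaks, went from 1.84 to 2.87 FPKM at 24 months (0.45, SE 0.093, limma adjusted p = 0.0553). Larger differences with higher p were those of Sfr1 (0.72, SE 0.26, limma adjusted p = 0.228) and Mre11a (0.59, SE 0.17, limma adjusted p = 0.141), another MRN subunit.

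Circles of this pathway were also read. Besides that of Brca2, 42 circles from 17 of these genes were tested, and edgeR called 11 higher and 1 lower at 24 against 3 months, against 6.66% and 6.61% of all circles. Of the higher ones, 6 came from Atr, the kinase that responds to single-stranded DNA, with log2 differences from 0.34 to 0.79. A circle of Palb2, the protein that brings BRCA2 to DNA breaks, measured 1.30 ± 0.224 CPM at 3 months and 3.28 ± 0.861 CPM at 24 months (SD, n = 5 each, log2 difference 1.32, adjusted p = 0.0035 by edgeR). The others came from Fancl, Fancm, Ercc4 and Brip1, and the lower one from Slx4. Circles of 1 gene can share exons and reads. At 12 against 3 months 2 were higher and 1 lower, where 3.44% of all circles were called higher and 3.2% lower. At 24 against 12 months edgeR called 0 of the 42, with 7 higher and 1 lower at an unadjusted p under 0.05, against 8.01% and 8.88% of all circles.

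Genes known from the formation or turnover of circular RNA were not called in linear RNA at any comparison. Of 16 tested, limma called 0, with 4 higher and 1 lower at an unadjusted p under 0.05 at 24 against 3 months, against 11.4% and 3.47% of all genes. The lower one was Mbnl2, a splicing regulator, which went from 19.8 to 14.5 FPKM (-0.39, SE 0.16, limma adjusted p = 0.295). Of the higher ones, the RNA-binding proteins Khdrbs1 and Hnrnpm went from 8.37 to 10.01 FPKM and from 12.8 to 14.9 FPKM (0.23 and 0.21, limma adjusted p = 0.183 for each). Since Brca2 is a gene of dividing cells, 13 proliferation markers were read beside it. Limma called 0 of them at each comparison, with 6 higher and 0 lower at an unadjusted p under 0.05 at 12 against 3 months and 2 higher and 0 lower at 24 against 3 months, against 11.4% of all genes higher in each comparison. Their median log2 difference was 0.28 at 12 months and 0.13 at 24 months. Mcm2, a replication helicase subunit, went from 2.84 to 3.86 FPKM at 24 months (0.35, limma adjusted p = 0.231) and Ccna2 from 1.03 to 1.54 FPKM (0.33, adjusted p = 0.375).

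In bulk tissue, fewer cells of a type and less RNA per cell cannot be told apart. The kidney label was borne out by proximal tubule markers (Lrp2, Cubn and Slc34a1), which summed to 1284 to 1734 FPKM in every mouse. Of 25 markers of all listed cell types limma called 0 at 12 and 0 at 24 against 3 months, with 6 and 7 at an unadjusted p under 0.05, against 14.3% and 14.9% of all genes. At 12 months these were Aqp2, Cd52, Star and the 3 B and plasma cell markers. At 24 months they were Pecam1, Ptprc, Star, Rbfox3 and the same 3 B and plasma cell markers. The collecting duct marker Aqp2 ranged from 25.9 to 134 FPKM at 3 months and lay between 17.9 and 51.7 FPKM in the older mice. The leukocyte markers Ptprc and Cd52 summed to 1.46 to 7.80 FPKM at 3 months, 5.77 to 12.8 at 12 months and 5.96 to 10.9 at 24 months. The 3 B and plasma cell markers, all at an unadjusted p under 0.05 in both comparisons, summed to 9.81 to 93.1 FPKM at 3 months, 53.0 to 371 at 12 months and 86.7 to 198 at 24 months. The 5 adrenal cortex markers summed to 1.05 to 1.75, 1.73 to 2.34 and 1.91 to 3.25 FPKM, almost all of it Star, a mitochondrial cholesterol transporter. The defining adrenal enzymes were near 0: Cyp11b1 was listed at 0 in 14 mice, Cyp11b2 in 12, Cyp21a1 in 9 and Cyp11a1 in 7. Cyp11a1 was above 0 in every mouse of 24 months and averaged 0.0057, 0.0087 and 0.0167 FPKM at 3, 12 and 24 months. Cyp21a1 averaged 0.0024, 0.0061 and 0.0149 FPKM, and the ages overlapped for both enzymes. The 3 neuronal markers summed to at most 0.238 FPKM in any mouse. Of these, Rbfox3 averaged 0.0236, 0.0449 and 0.0558 FPKM at 3, 12 and 24 months, and Tubb3 averaged 0.0648, 0.0524 and 0.0514 FPKM. The part of leukocyte, adrenal, endothelial or neuronal RNA in the levels of Ano4 and Brca2 was not tested.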

How the data were processed

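The age of each mouse was taken from its age label, since the sample titles name 1 age for all. Labels describe ribosomal RNA depletion and a stranded kit, while the study's methods name oligo(dT) selection, which would remove circles; which applied is not settled here. The study's methods give GRCm38 with Ensembl annotation and StringTie for linear transcripts, and the submitters' processing notes list TopHat, TopHat2 and StringTie. The tool that called and counted circles is not given in the sources used here. The authors deposited estimated counts and FPKM of circular RNAs and FPKM of linear transcripts. The mean coverage of linear transcripts that the authors also deposited was used only to gauge depth.

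The deposited estimated counts were rounded to whole numbers, circles with a count in 5 or more of the 10 mice were kept, and edgeR 4.0.16 (TMM scaling, quasi-likelihood test) was run on each pair of ages. For linear RNA, the deposited FPKM of rows with class code =, c, j or o (matching, contained in or sharing exon parts with a known transcript) were summed per gene, and limma 3.58.1 with trend was run on log2(FPKM + 1), keeping genes with any value above 0. All rows of Ano4 and Brca2 had class code =. The 5 rows assembled inside Ano4 introns were left out. Calls used a Benjamini-Hochberg adjusted p of 0.05. The linear RNA of both hosts was in these fits, but its differences against 3 months are given with no p because the circles were chosen in the same comparisons, and both genes were left out of the list counts. All 22 linear rows matched GENCODE M21, from which exons and junction sequences were read. Exact permutation tests covered 252 assignments of 10 mice, and relations within ages used 100000 permutations within ages. The scripts were tested on simulated data. DESeq2 1.42.0, other filters, scalings and pseudocounts and leaving out each mouse were alternatives.

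The members and gene lists were chosen with earlier results of these data known. Named were both circles, the 5 highest linear rows of each gene, list genes that were called and the 2 uncalled genes of each list with the largest difference at 24 against 3 months, and the 3 circles most like each member by Pearson r among those above 0 in at least 8 mice. The values of 1 gene named by this rule are not reported here. Rad50, Khdrbs1, Hnrnpm and the cell type markers were added after their values were seen. The study's methods describe mice of 3 and 24 months, killed on the same day, and not those of 12 months. Library batches are not given in the sources used here.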

Additional observations from a re-analysis of the deposited data

Results flagged for a closer look

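Of 36 groups of 5 mice examined for a value far from the rest, 1 stood out: the deposited FPKM of the Brca2 circle in mouse 20 of 12 months was 0.75, below the nearest value of 0.85, a gap of 0.714 of the group's range against a limit of 0.71. Chance alone marks about 1 group in 20. The CPM of the same circle in that mouse was 28.2, still above all mice of 3 months.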

How the results depend on the processing

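No paired analysis was possible because the mouse numbers are not shared between ages. For the 2 circles, DESeq2, library totals and both filters kept the direction in all 3 comparisons and both calls at 24 against 12 months, while limma on the deposited FPKM + 1 gave 1.58 for Ano4 at 24 against 3 months, 0.39 and 0.58 for Brca2 at 12 and 24 against 3 months and 0.19 at 24 against 12 months (adjusted p = 0.147). In the fit of all 15 mice the differences at 24 against 12 months were 0.60 for Ano4 and 0.39 for Brca2, neither called. With a pseudocount of 0.1, linear Ano4 differed by 0.76 and 1.28 and linear Brca2 by 1.27 and 1.19 at 12 and 24 against 3 months. With 1 added to the host FPKM the ratios against 3 months were 0.98 and 1.28 for Ano4 and 0.28 and 0.73 for Brca2. With 0.01 added they were 0.44 and 0.47 for Ano4 and -0.22 and 0.25 for Brca2. Among host measures chosen after seeing the data, rows with no base of the circle gave 1.21 for Ano4 at 24 against 3 months and -0.41 and 0.68 for Brca2. The Ano4 row averaged at most 0.104 FPKM at any age, so the 0.1 added weighs on its value. Rows with the whole circle gave 1.05 for Ano4 at 12 against 3 months and -0.22 at 24 against 12 months, and 0.23 and 0.073 for Brca2 in these comparisons. The cause was not tested. With class code = only, the levels of the members were as before.

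Leaving out 1 mouse at a time, the circles ranged from 0.52 to 0.64 (Ano4) and 0.33 to 0.42 (Brca2) at 24 against 12 months. Linear Brca2 ranged from -0.12 to 0.029 at 24 against 12 months, above 0 only without mouse 32. The Ano4 ratio ranged from -0.0052 to 0.20 at 24 against 12 months, below 0 without mouse 17, and the Brca2 ratio from 0.39 to 0.56 (exact permutation p at most 0.0476).

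Called circles numbered 791, 1582 and 88 at 12 against 3, 24 against 3 and 24 against 12 months. DESeq2 gave 1239 and 418 in the first and last, the fit of all 15 mice gave 0 in the last, and leaving out 1 mouse gave 308 to 808, 856 to 1735 and 0 to 390. Called linear genes numbered 79, 386 and 1. They were 27 and 190 in the first and second with class code = only, 158, 166 and 55 when called at an unadjusted p under 0.05 with a log2 difference above 1 in size, 299, 678 and 0 in the fit of all 15 mice and 3 in the last with a pseudocount of 0.1. Leaving out 1 mouse gave 12 to 70, 109 to 411 and 1 to 7.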

Other observations

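Inside the introns of Ano4, 5 further transcripts of a single exon each were assembled, 218 to 1164 nt long, and 2 of them lie within the span of the circle. Their summed FPKM ranged from 0 to 1.80 at 3 months, from 0 to 0.403 at 12 months and from 0 to 3.29 at 24 months, and the ages overlapped. The mean at 12 months was 0.129 FPKM, below the 0.686 FPKM at 3 months, so these rows did not follow the order of ages of the circle. Brca2 had no such rows.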
